A study of Mus musculus with 12 samples.

Results

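Mouse B cell lymphoma cells exposed to the KAT6 inhibitor WM-1119 for 3 days were compared with cells exposed to its solvent, DMSO, for the same time. The comparison used 6 of the study's 12 samples, 3 treated and 3 controls, chosen by the compound and time in their labels and by no measured value. The cells were EMRK1184luc, a line established from a lymphoma of 1 female Eµ-Myc mouse. In such mice a Myc transgene sits under the enhancer of the immunoglobulin heavy chain and is active in B-lineage cells. A lentiviral luciferase reporter had been added to the line for imaging, so that treated and control cells alike carried the transgene and the reporter. WM-1119, described in the labels as an inhibitor of MYST acetyltransferases, was given at 5 µM. The other 6 samples, 3 with WM-1119 and 3 with DMSO for 6 days, came from the same line and are used here only to place the changes of 3 days in time. All results come from 1 line of 1 mouse. The labels do not say whether the replicates were separate cultures, so the p-values measure only the spread between these samples, which may be technical.

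KAT6A (MOZ) and KAT6B (MORF) are histone acetyltransferases of the MYST family. They work in complexes built on a BRPF scaffold, with ING5 and MEAF6, and acetylate histone H3 at the promoters and enhancers of active genes. WM-1119 competes with acetyl-coenzyme A for the catalytic pocket. KAT6A is known for maintaining blood stem cells and the expression of Hox genes, and its inhibition is known to bring proliferating cells to arrest through the products of the Cdkn2a locus.

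Gene-level read counts ranged from 17928095 to 28228807 per library at 3 days. Of 26305 genes with an identifier, 11997 had enough counts to be tested. Within each group the libraries correlated at 0.9937 or more, and the first axis of a multidimensional scaling plot, with 57.7% of the variance, placed the 3 treated libraries between -0.667 and -0.629 and the 3 controls between 0.629 and 0.663. The second axis, with 13.7%, set DMSO replicate 2 (0.474) and DMSO replicate 3 (-0.603) apart from each other. B cell markers summed to 4630 to 4870 counts per 1000000 (CPM) in controls and 4980 to 5190 in treated cells, with Ms4a1 (CD20) at 0 in all 6 libraries; Cd79b was higher, and Pax5, Ebf1, Cd22 and Blk were lower, with WM-1119. Fibroblast markers summed to 18.3 to 21.8 CPM in controls and 12.3 to 16.7 in treated cells. That difference lay in Fbn1 (18.02, 15.4 and 17.2 CPM against 10.1, 10.1 and 9.92 CPM, log2 fold change -0.75), and the other 8 tested markers had positive fold changes that did not pass the test. Of 3 tested myeloid markers Csf1r rose from 1.16, 1.06 and 0.908 CPM to 4.97, 4.61 and 4.41 CPM (log2 fold change 2.14, adjusted p = 1.11e-07) and Itgam fell (-0.14); of 2 endothelial markers Emcn fell (-1.07, adjusted p = 0.0236). The part of other cell types in the results was not tested. T cell markers summed to 2.27 CPM at most, with 7 of 10 at 0 throughout.

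With WM-1119, 1414 genes (11.8% of those tested) were higher and 1516 (12.6%) were lower at a false discovery rate of 0.05 in edgeR's quasi-likelihood test with Benjamini-Hochberg adjustment. These genes are called changed below, and the adjusted p is always from that test. Together they made up 24.4% of the genes tested. In the counts of a gene group given here, the background is 11.8% for rises and 12.6% for falls. Most changes were small. Of the 2930 changed genes, 50.5% differed by less than 1.25-fold, and 695 (5.79% of genes tested) by 1.5-fold or more, 343 of them higher and 352 lower. At 2-fold or more there were 150 higher and 179 lower. The 3 treated libraries lay wholly outside the range of the 3 controls for 4786 genes (39.9%), a looser criterion than the test. In bulk RNA, fewer cells of one kind and less RNA per cell cannot be told apart.

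The transcripts of the inhibitor's targets did not pass the test. Kat6a was measured at 162, 176 and 171 CPM in the controls and 158, 179.5 and 174 CPM in treated cells, a log2 fold change of 0.0083 ± 0.05 (SE) with an adjusted p of 0.93. Kat6b was at 25.4, 24.8 and 27.3 CPM against 25.6, 27.4 and 27.6 CPM (log2 fold change 0.059 ± 0.071, adjusted p = 0.59). In both genes the groups overlapped. The scaffold gene Brpf1 gave 0.065 (adjusted p = 0.4). Because WM-1119 blocks the enzyme and not the transcript, these levels do not check whether the compound acted. Of the 14 genes of KAT6 complexes and other MYST enzymes, 3 rose and none fell. Jade2, a scaffold of the related KAT7 complex, rose from a mean of 40.8 to 58.8 CPM, Brpf3 from 31.3 to 39.9 CPM, and Meaf6 by only 0.20 on the log2 scale (adjusted p = 0.026). The Meaf6 call was lost when any of WM-1119 replicates 1 or 3 or DMSO replicates 1 or 2 was left out (adjusted p from 0.0726 to 0.113).

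The largest changes were ranked among called genes with an assigned name, a mean of at least 5 CPM at 3 days and groups without overlap. The mean pools treated and control libraries, so a gene can pass through the group in which it is high. Tanc2 and Actn2, given below, changed by more but lay under that mean. The largest ranked rise was in Neurl3 (chr1:36264602-36274674, GRCm38.p6), which encodes a ubiquitin ligase of the neuralized family. Its level was 5.95, 5.60 and 6.87 CPM in the controls and 35.5, 30.5 and 33.01 CPM with WM-1119, so that the lowest treated library stood far above the highest control (log2 fold change 2.43 ± 0.093, adjusted p = 5.3e-14). Ptgir, the prostacyclin receptor, went from 1.72, 2.17 and 2.04 CPM to 10.2, 7.61 and 7.71 CPM (log2 fold change 2.09 ± 0.18, adjusted p = 2.0e-08). Ly6d, a surface protein that marks lymphoid progenitors committed to the B lineage, went from 2.79, 2.70 and 2.33 CPM to 9.84, 10.96 and 11.7 CPM (log2 fold change 2.05 ± 0.12, adjusted p = 5.4e-11). The ranking itself fixed that no treated library overlapped the controls in these genes. Cdh17, a cadherin of the B cell and gut epithelial surface, rose from 5.25, 6.23 and 5.56 CPM to 20.2, 18.1 and 18.4 CPM (log2 fold change 1.73 ± 0.11). Tal1, a transcription factor of blood stem cells and the erythroid lineage, rose from 6.18, 5.89 and 5.34 CPM to 15.8, 15.1 and 17.2 CPM (log2 fold change 1.46 ± 0.11, adjusted p = 1.7e-09). The other 5 of the 10 largest rises were Igip (log2 fold change 1.64), the kinase gene Dstyk (1.57), the complement regulator properdin, Cfp (1.55), the lipoprotein lipase inhibitor Angptl4 (1.42) and Csf2rb (1.36). Csf2rb encodes the shared chain of the receptors for interleukin 3, interleukin 5 and GM-CSF and has a near-identical neighbour, so reads of the pair may have been split between them.

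**Figure D1:**
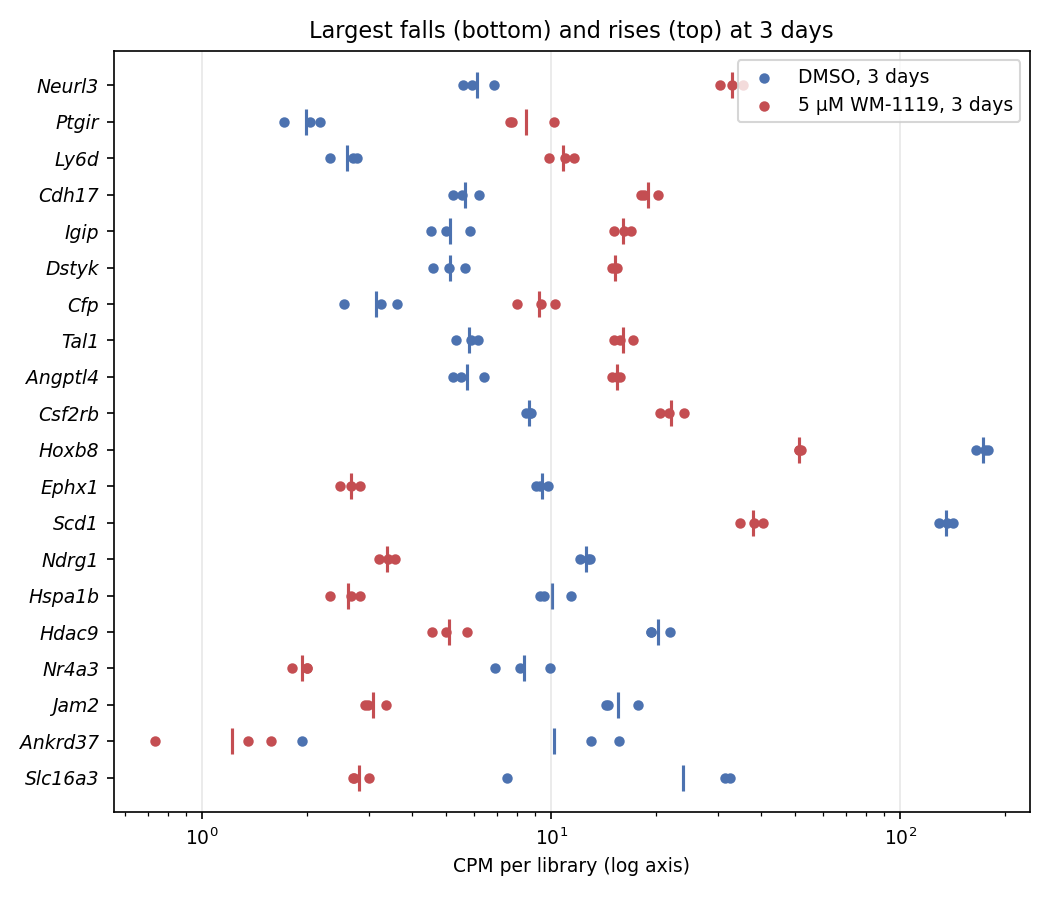
Level of the 20 genes with the largest rises and falls at 3 days, in CPM on a log axis. Each point is 1 library, blue for DMSO and red for 5 µM WM-1119, and each vertical tick is a group mean. The 20 were taken only from genes whose groups did not overlap. In Slc16a3 and Ankrd37 1 control library (DMSO replicate 3) lies near the treated ones.

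The 10 largest falls, ranked in the same way, spanned different functions. Jam2, a junctional adhesion molecule, fell from 14.4, 14.6 and 17.8 CPM to 3.35, 2.93 and 2.99 CPM (log2 fold change -2.34 ± 0.13, adjusted p = 1.8e-11). Hdac9, a class II histone deacetylase, fell from 19.4, 21.9 and 19.3 CPM to 5.73, 4.99 and 4.57 CPM (log2 fold change -1.99 ± 0.11, adjusted p = 2.2e-11). Scd1 (chr19:44394450-44407709), the desaturase that makes oleate from stearate, fell from 129, 136 and 142 CPM to 40.5, 34.7 and 38.1 CPM (log2 fold change -1.85 ± 0.062, adjusted p = 4.6e-15). That the groups did not overlap was again fixed by the ranking. Nr4a3, an orphan nuclear receptor, fell from 6.92, 8.16 and 9.93 CPM to 2.00, 1.81 and 1.99 CPM (log2 fold change -2.10 ± 0.17, adjusted p = 4.4e-09). Ndrg1 (log2 fold change -1.88), the epoxide hydrolase Ephx1 (-1.80) and Hspa1b (-1.93), an inducible HSP70 gene with a near-identical copy, were also among the 10. So was Hoxb8 (-1.75), described below with its cluster. Slc16a3, the lactate exporter MCT4, was at 32.5, 31.5 and 7.49 CPM in controls and 2.70, 3.00 and 2.73 CPM with WM-1119 (log2 fold change -3.09 ± 0.57, adjusted p = 0.0047). The hypoxia-inducible gene Ankrd37 was at 15.6, 12.99 and 1.93 CPM against 1.35, 1.57 and 0.735 CPM (log2 fold change -3.04 ± 0.76, adjusted p = 0.02). In both, DMSO replicate 3 was far below the other controls and closer to the treated libraries. The Slc16a3 call was lost with a replicate block in the 6 libraries of 3 days (adjusted p = 0.0651) and without the libraries in which Col1a1 exceeded 1 CPM (0.164). The Ankrd37 call was lost in a fit of the 6 libraries of 3 days alone (adjusted p = 0.0989) and when any 3-day library other than DMSO replicate 3 was left out (0.0543 to 0.0684).

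The 6 rises with the smallest p-values were Neurl3, Ly6d, Rasgrp2, Slc28a2, Dusp5 and Adssl1. Rasgrp2, a calcium-responsive activator of RAP1, rose from 95.4, 98.9 and 101 CPM to 177, 180.4 and 174 CPM (log2 fold change 0.85 ± 0.048, adjusted p = 2.7e-11). Dusp5, a nuclear phosphatase of ERK, rose from 47.1, 53.7 and 45.4 CPM to 109, 101 and 95.2 CPM (log2 fold change 1.06 ± 0.061, adjusted p = 3.6e-11). The nucleoside carrier Slc28a2 rose by 1.20 and Adssl1, an enzyme of AMP synthesis, by 1.04 on the log2 scale. Spreads within groups were small in all 4, which a choice by the smallest p-value favours. The 6 falls with the smallest p-values were Hoxb8, Scd1, Scd2, Gpam, Lgr5 and Enpp3. Lgr5, the R-spondin receptor known from stem cells, went from 44.7, 42.97 and 48.3 CPM to 16.5, 15.6 and 17.1 CPM (log2 fold change -1.47 ± 0.07, adjusted p = 2.4e-12). Enpp3, an ectonucleotidase, went from 141, 129 and 134 CPM to 69.3, 68.8 and 69.3 CPM (log2 fold change -0.96 ± 0.046, adjusted p = 2.4e-12). The abundant genes that changed by at least 1.5-fold included the integrin partners Fermt3 (kindlin-3, 166 to 262 CPM) and Parvg (gamma-parvin, 208 to 320.1 CPM), the Toll-like receptor chaperone Unc93b1 (201 to 321 CPM), and, falling, the gap junction gene Gja1 (404 to 234 CPM) and Tgfbrap1 (255 to 146 CPM). Only 2 named genes crossed from under 0.5 CPM in every library of one group to at least 2 CPM in every library of the other. Tanc2 went from 0.464, 0.338 and 0.397 CPM to 2.60, 2.44 and 2.47 CPM, and Actn2, a muscle alpha-actinin, from 2.79, 3.28 and 2.61 CPM to 0.162, 0.175 and 0.105 CPM.

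In the HoxB cluster on chromosome 11, 3 of the 7 tested genes fell. Hox genes encode the factors that set position along the body axis and, in blood, hold progenitors back from maturing. Hoxb8 (chr11:96279401-96285325) stood at 179, 175 and 164 CPM in the controls and at 51.9, 51.1 and 51.2 CPM with WM-1119 (log2 fold change -1.75 ± 0.047, adjusted p = 9.8e-17). Its neighbour Hoxb7 fell from 48.4, 48.8 and 46.4 CPM to 23.8, 19.9 and 19.5 CPM (log2 fold change -1.19 ± 0.077, adjusted p = 1.9e-10). Both were apart from the controls in every library. Hoxb3, which overlaps Hoxb4 in the annotation, changed less, from 21.4, 18.2 and 20.6 CPM to 14.9, 16.9 and 16.005 CPM (log2 fold change -0.33 ± 0.094, adjusted p = 0.014), and lost its call without WM-1119 replicate 1 or DMSO replicate 1 (adjusted p = 0.0611 and 0.0817). Hoxb6, the next gene along, was at 22.9, 23.7 and 25.1 CPM against 29.1, 26.9 and 25.4 CPM (log2 fold change 0.19 ± 0.096, adjusted p = 0.18), and Hoxb5, Hoxb4 and Hoxb9 did not pass the test either (adjusted p = 0.91, 0.52 and 0.29). Hoxc4 had no reads in the 3 controls and 14, 15 and 7 reads in the treated libraries, at least 10.8-fold higher against a floor of 3 reads over the control group. Among the partners of Hox proteins, Pbx3 rose from 0.836, 0.290 and 0.908 CPM to 1.95, 1.78 and 1.52 CPM (adjusted p = 0.0029), Pbx2 from a mean of 37.95 to 51.01 CPM, and Pknox1 fell from 129 to 90.2 CPM.

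The promoters of Hoxb8 and Neurl3, the Hox gene with the deepest fall and the gene with the largest rise, are shown because they differ in CpG content. Each is the 250 bases before a RefSeq transcript start in GRCm38.p6, which can lie inside the outermost bounds of the gene, read 5′ to 3′ on the gene's strand, with CpG dinucleotides in capitals. The Hoxb8 window (chr11:96281655-96281904, plus strand) holds 12 CpGs and the Neurl3 window (chr1:36273426-36273675, minus strand) 7.
Hoxb8: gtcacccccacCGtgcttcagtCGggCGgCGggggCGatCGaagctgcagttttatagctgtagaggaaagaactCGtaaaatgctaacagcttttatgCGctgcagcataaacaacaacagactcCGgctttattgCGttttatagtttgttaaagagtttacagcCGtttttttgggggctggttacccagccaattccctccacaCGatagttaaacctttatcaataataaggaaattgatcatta
Neurl3: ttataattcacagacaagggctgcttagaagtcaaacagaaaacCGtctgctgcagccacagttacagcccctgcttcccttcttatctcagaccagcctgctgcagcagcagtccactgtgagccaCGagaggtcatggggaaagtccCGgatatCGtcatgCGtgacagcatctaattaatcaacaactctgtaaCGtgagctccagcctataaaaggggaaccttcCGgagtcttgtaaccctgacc
Over all genes with such a window (9235 of 11997 tested) the median was 16 CpGs. The 279 genes with a window that fell by at least 1.5-fold had a median of 15, and the 244 that rose by as much had a median of 8. These are descriptions of sequence and carry no test.

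The Cdkn2a locus, whose products INK4A and ARF hold back CDK4/6 and MDM2, was already higher at 3 days. Cdkn2a (chr4:89274473-89294619) was at 13.7, 11.5 and 12.3 CPM in the controls and 25.5, 24.7 and 23.8 CPM with WM-1119, with every treated library above every control (log2 fold change 0.98 ± 0.09, adjusted p = 3.4e-08). The gene-level counts do not separate INK4A from ARF, which share exons. Cdkn2b (INK4B), the next gene, went from 0.232, 0.193 and 0.170 CPM to 0.811, 0.733 and 0.840 CPM (log2 fold change 1.95 ± 0.43, adjusted p = 0.002), a rise within a very low level. Mtap, on the other side, did not pass the test at 122, 117 and 125 CPM against 126, 125 and 126 CPM (adjusted p = 0.42). Of the genes downstream of ARF and p53, Cdkn1a (p21) was at 4.55, 4.25 and 3.75 CPM against 2.97, 4.05 and 4.51 CPM (log2 fold change -0.12 ± 0.16, adjusted p = 0.65), with overlapping groups, and Mdm2, the ubiquitin ligase of p53, had an adjusted p of 0.63. Of 26 tested genes of p53 and its targets, 2 rose and 7 fell. The deepest fall among them was in Pmaip1 (NOXA), a BH3-only activator of cell death, from 22.4, 20.2 and 23.96 CPM to 9.73, 8.48 and 7.08 CPM (log2 fold change -1.39 ± 0.11, adjusted p = 3.3e-09). Sesn2 and Zmat3, also p53 targets, had log2 fold changes of -0.83 and -0.68.

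**Figure D2:**
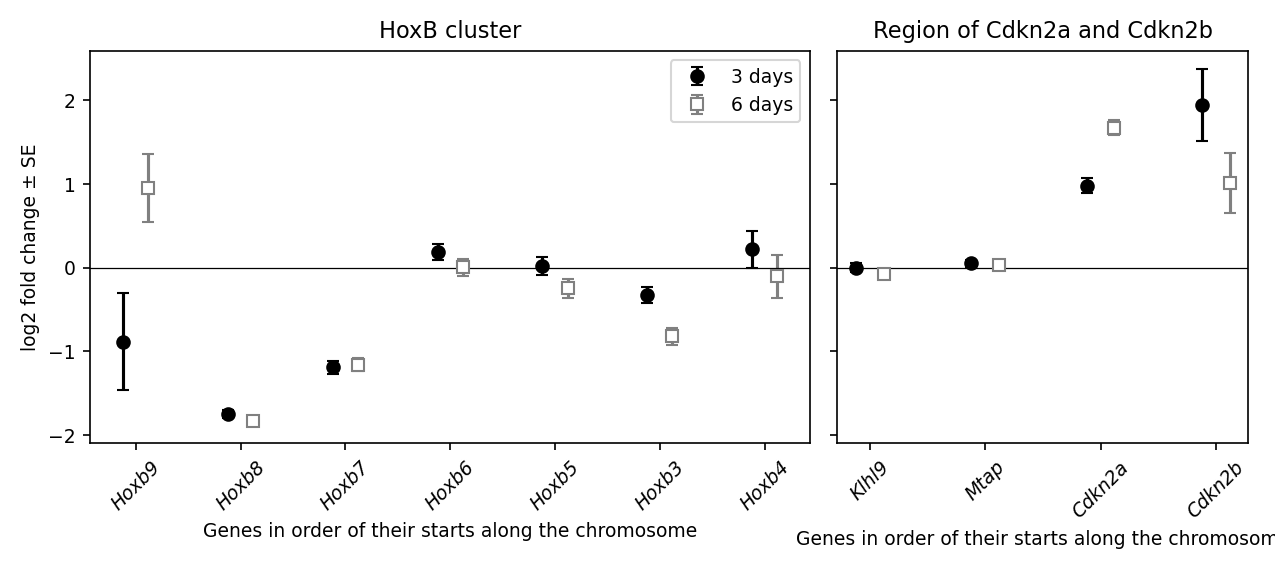
Log2 fold change ± SE of the tested genes of the HoxB cluster (left) and of the region of Cdkn2a and Cdkn2b (right), in order of their starts along the chromosome; black circles are 3 days, open squares 6 days, 3 libraries per group. Hoxb8 and Hoxb7 lie between -1.83 and -1.16 at both times, while Hoxb6 and Hoxb5 lie between -0.25 and 0.19; Cdkn2a is at 0.98 at 3 days and 1.67 at 6 days.

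Genes of the cell division cycle changed in both directions, as did all genes tested. Among 64 genes of E2F targets and DNA replication, 7 rose and 9 fell, 10.9% and 14.1% of the list beside 11.8% and 12.6% of all genes. The rises numbered 3 without WM-1119 replicate 3, and the falls 4 without WM-1119 replicate 2. E2f2, a known KAT6A target in fibroblasts, was at 241, 241 and 249.8 CPM against 252, 246 and 247 CPM and did not pass the test (adjusted p = 0.72). Ezh2, the polycomb methyltransferase and an E2F target, fell from 308, 292 and 273 CPM to 225, 228 and 225 CPM (log2 fold change -0.36 ± 0.047, adjusted p = 4.6e-06). E2f7, a repressor of the E2F programme, rose from 28.5 to 39.7 CPM and thymidine kinase, Tk1, from 85.95 to 107 CPM. Of 58 mitosis genes, 3 rose (5.17%) and 11 fell (19.0%). None of them fell by more than Pttg1 (log2 fold change -0.30, not called with DESeq2, adjusted p = 0.0595). The falls numbered 3 without WM-1119 replicate 3 and 6 with DESeq2. Of 18 cyclins and cyclin-dependent kinases, 1 rose (5.56%) and 3 fell (16.7%), and without WM-1119 replicate 2 none rose and 1 fell. The INK4-family gene Cdkn2c fell from 52.5, 55.1 and 48.1 CPM to 43.6, 40.4 and 35.3 CPM (adjusted p = 0.00081). Myc itself, which the transgene drives, fell from 1378, 1443 and 1525 CPM to 1232, 1169 and 1175 CPM (log2 fold change -0.28 ± 0.049, adjusted p = 0.00016). The counts do not separate the transgene from the resident gene.

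The sterol pathway was lower along most of its length. Of 20 tested enzymes from acetoacetyl-CoA to cholesterol, 16 fell and none rose, with a median log2 fold change of -0.48 against 0.002 over all genes tested. The list summed to 1463, 1499 and 1313 CPM in the controls and 1012, 1068 and 1031 CPM with WM-1119, without overlap. Hmgcs1, the HMG-CoA synthase, was at 143, 145 and 124 CPM in controls and 91.8, 93.96 and 89.2 CPM with WM-1119 (log2 fold change -0.58 ± 0.053, adjusted p = 3.2e-08). Squalene epoxidase, Sqle, went from 156, 163 and 132 CPM to 100.2, 106 and 98.3 CPM (log2 fold change -0.57 ± 0.064). Of the steps from lanosterol, Cyp51 and Msmo1 fell by as much, but not all of the others did. Cyp51 went from 152, 166 and 142 CPM to 97.2, 99.4 and 97.1 CPM (log2 fold change -0.65 ± 0.051, adjusted p = 4.4e-09) and Msmo1 changed by -0.67. In these 4 genes the treated libraries lay below all controls. The 4 that did not pass were Hsd17b7, Acat2, Ebp and Tm7sf2 (log2 fold changes -0.17, -0.13, 0.015 and 0.43). Tm7sf2, a sterol reductase, passed as higher in a fit of the 6 libraries of 3 days alone (adjusted p = 0.00642).

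**Figure D3:**
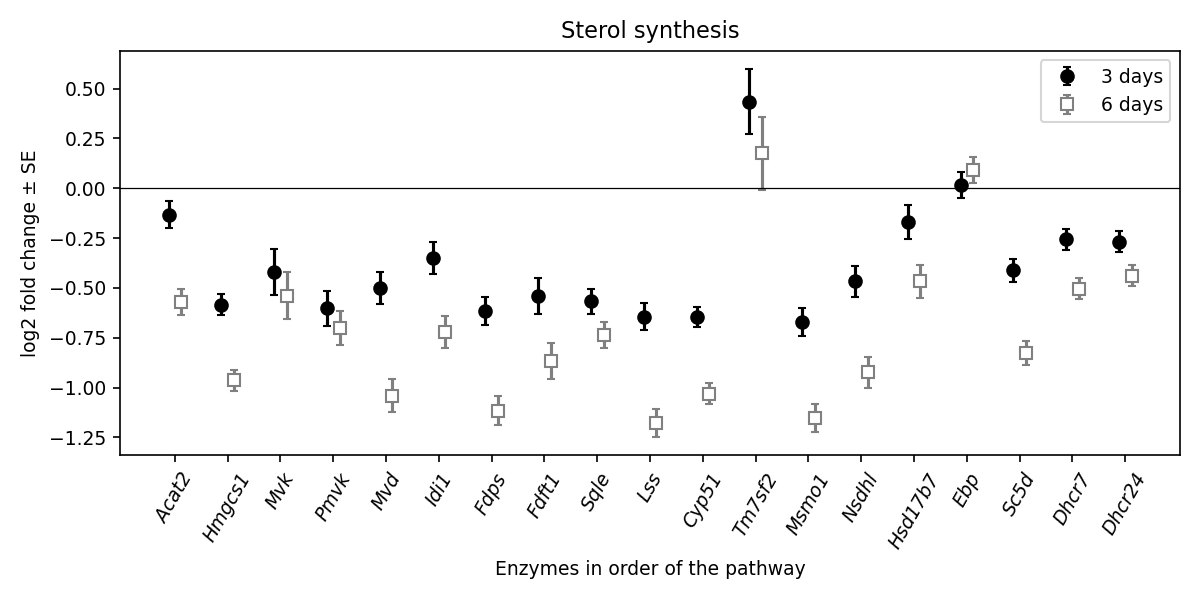
Log2 fold change ± SE of 19 enzymes of sterol synthesis, in pathway order from left to right; black circles are 3 days and open squares 6 days, 3 libraries per group. At 3 days 15 of the 19 were lower, between -0.67 and -0.26, and most 6-day values lie further from 0.

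The promoters of Hmgcs1 and Cyp51 show the letters that these genes share. Sterol-regulated promoters are known for CCAAT boxes, bound by NF-Y, close to the SREBP site. CCAAT (or its complement ATTGG) is in capitals, and the search covered both strands of the 250 bases before each RefSeq start. The Hmgcs1 window is chr13:119690101-119690350 (plus strand) and the Cyp51 window chr5:4104698-4104947 (minus strand).
Hmgcs1: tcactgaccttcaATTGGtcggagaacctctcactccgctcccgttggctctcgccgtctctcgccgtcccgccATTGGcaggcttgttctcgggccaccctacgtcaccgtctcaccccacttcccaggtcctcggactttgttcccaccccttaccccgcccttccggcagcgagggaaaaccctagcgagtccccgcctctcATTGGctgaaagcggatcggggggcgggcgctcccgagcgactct
Cyp51: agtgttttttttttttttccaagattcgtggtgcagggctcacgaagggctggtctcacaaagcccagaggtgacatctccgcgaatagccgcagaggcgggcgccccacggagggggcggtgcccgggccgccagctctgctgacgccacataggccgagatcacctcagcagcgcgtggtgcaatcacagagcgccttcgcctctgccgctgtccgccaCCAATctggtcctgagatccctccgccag
A CCAAT box was present in 14 of the 15 sterol enzymes with a window (93.3%), against 3834 of 9235 tested genes (41.5%). The letters TCACNCCAC, a form of the sterol regulatory element, were found in 1 of the 15, Hmgcs1, and in 1.21% of all. A match is a description of letters and not a binding site.

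Fatty acid and glycerolipid genes followed in the same direction. Of 31 tested, 16 fell and 3 rose. Scd2, the second abundant desaturase, fell from 638, 632 and 558 CPM to 282, 307 and 294 CPM (log2 fold change -1.05 ± 0.049, adjusted p = 2.3e-12). Gpam, which starts glycerolipid synthesis, fell from 206, 222 and 221 CPM to 112, 115 and 111 CPM (log2 fold change -0.94 ± 0.044, adjusted p = 2.3e-12). Neither gene had overlapping groups. The acyl-CoA synthetase Acsl3 changed by -0.54 and acetyl-CoA carboxylase, Acaca, by -0.32, while fatty acid synthase, Fasn, did not pass the test (-0.098, adjusted p = 0.55). The regulators moved as well. Srebf2, the master factor of sterol genes, fell from 348, 371 and 363 CPM to 273, 276 and 278 CPM (log2 fold change -0.39 ± 0.041, adjusted p = 3.3e-07), and Srebf1, the factor of fatty acid genes, from 112, 123 and 112 CPM to 88.8, 91.3 and 94.1 CPM (log2 fold change -0.34 ± 0.05). Their sensor Insig1 changed by -0.44. The whole list of SREBP and LXR regulators and transporters had 8 falls and 1 rise among 18. The rise was Npc1, which exports cholesterol from lysosomes (from 19.8 to 24.4 CPM), and its call was lost without WM-1119 replicate 2 or DMSO replicate 2 (adjusted p = 0.0952 and 0.0534).

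Glycolysis was lower as a group. Of 23 tested genes, 15 fell and 3 rose, with a median of -0.36. The list summed to 9150.2, 9042 and 8309 CPM in the controls and to 6593, 6465 and 6685 CPM with WM-1119, so the groups did not overlap although DMSO replicate 3 was the lowest control. Pkm, pyruvate kinase, fell from 1996, 1964 and 1839 CPM to 1259, 1235 and 1312 CPM (log2 fold change -0.61 ± 0.044, adjusted p = 9.7e-10). Ldha, lactate dehydrogenase, fell from 1964, 1939 and 1789 CPM to 1389, 1292 and 1318 CPM (log2 fold change -0.51 ± 0.044, adjusted p = 1.7e-08). Pgk1, phosphoglycerate kinase, fell from 111, 87.2 and 97.5 CPM to 70.5, 64.4 and 72.2 CPM (log2 fold change -0.52 ± 0.1, adjusted p = 0.0023). Pgam1 changed by -0.74 and hexokinase 2, Hk2, by -0.53 (adjusted p = 0.015, and 0.0753 in a fit of the 6 libraries alone). The isozymes Hk1 (0.30), Pfkfb2 (0.28) and Pfkm (0.22) rose, and the count of rises was 1 without WM-1119 replicate 2 or DMSO replicate 3. The glucose carrier Slc2a1 was at 60.1, 53.2 and 25.7 CPM against 29.04, 26.5 and 27.9 CPM and did not pass the test (log2 fold change -0.75 ± 0.29, adjusted p = 0.099). It passed with DESeq2 (adjusted p = 0.0485) and limma voom (0.0422), and without DMSO replicate 3, at -1.03 (adjusted p = 0.000565).

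Genes induced by hypoxia, outside glycolysis, held 14 falls and 1 rise among 25. Here the controls themselves differed. The list summed to 1882.5, 1752.5 and 1414 CPM in DMSO replicates 1, 2 and 3 and to 1311, 1279 and 1258 CPM in the treated libraries. Bnip3, a mitophagy receptor, was at 59.5, 47.5 and 22.4 CPM against 14.7, 13.6 and 13.9 CPM (log2 fold change -1.63 ± 0.31, adjusted p = 0.0052). Egln3, a prolyl hydroxylase of HIF, was at 102, 96.4 and 37.4 CPM against 28.5, 29.7 and 27.7 CPM (log2 fold change -1.46 ± 0.33, adjusted p = 0.013). P4ha1, which hydroxylates collagen, was at 95.9, 83.5 and 48.4 CPM against 37.5, 36.4 and 36.8 CPM (log2 fold change -1.05 ± 0.22). In all 3 genes DMSO replicate 3 lay between the other controls and the treated libraries, without overlap. Without the 5 libraries in the study that held over 1 CPM of the fibroblast gene Col1a1, 1 of them at 3 days (WM-1119 replicate 2), 5 genes of the list were called lower; without DMSO replicate 3 there were 19. The calls of Bnip3, Egln3 and P4ha1 were lost in a fit of the 6 libraries of 3 days alone (adjusted p = 0.0606, 0.0897 and 0.0716), and without DMSO replicate 3 their log2 fold changes were -1.93, -1.79 and -1.28 (adjusted p = 4.38e-11, 2.66e-08 and 5.22e-09). Hif1a, the oxygen-regulated factor itself, fell from 249.6, 253 and 251 CPM to 217, 202 and 194 CPM (log2 fold change -0.30 ± 0.058, adjusted p = 0.00067) and its 3 controls were close together. Of 72 nuclear-encoded genes of the respiratory chain, 4 fell and none rose.

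The promoters of Ldha and Pgk1 are shown for the hypoxia response core ACGTG (or CACGT on the other strand), in capitals. Overlapping matches make the palindrome CACGTG, the E-box that MYC also binds. The Ldha window is chr7:46845554-46845803 and the Pgk1 window chrX:106186850-106187099, both on the plus strand. A second RefSeq window of Ldha held no match.
Ldha: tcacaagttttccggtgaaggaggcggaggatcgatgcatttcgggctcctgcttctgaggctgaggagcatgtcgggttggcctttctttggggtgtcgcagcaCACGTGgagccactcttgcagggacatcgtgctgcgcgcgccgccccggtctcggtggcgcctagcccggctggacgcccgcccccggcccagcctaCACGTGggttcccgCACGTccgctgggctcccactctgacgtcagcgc
Pgk1: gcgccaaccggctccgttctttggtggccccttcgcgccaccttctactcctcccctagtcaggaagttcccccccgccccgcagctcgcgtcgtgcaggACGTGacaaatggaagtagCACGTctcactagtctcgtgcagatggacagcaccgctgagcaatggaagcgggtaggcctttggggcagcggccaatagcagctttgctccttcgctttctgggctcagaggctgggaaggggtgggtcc
The core was in 12 of 22 glycolysis genes with a window (54.5%), in 13 of 21 hypoxia genes (61.9%) and in 2370 of all 9235 (25.7%). It was in 72 of the 279 genes that fell by at least 1.5-fold (25.8%) and in 39 of the 244 that rose by as much. Among translation factors it was in 13 of 29 (44.8%). Not all glycolysis and hypoxia genes with the core fell. Pfkm and Pfkfb2 rose, Slc2a1, Egln2, Vegfa, Ddit4, Car9 and Ero1a did not pass the test, and the others fell. Whether the core has a part in the falls was not tested.

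Immediate-early genes are the first transcripts to respond to growth signals. Of 23 tested, 10 fell, 4 rose and 9 did not pass the test. Egr1, a zinc-finger factor, went from 9.94, 8.59 and 6.13 CPM to 4.11, 2.83 and 2.99 CPM (log2 fold change -1.34 ± 0.17, adjusted p = 4.7e-06). Fos went from 4.27, 3.86 and 2.67 CPM to 0.595, 0.698 and 0.577 CPM (log2 fold change -2.51 ± 0.25, adjusted p = 1.5e-07). In both, DMSO replicate 3 was the lowest control and still above every treated library. Ier5 changed by -0.79 and the growth inhibitor Btg1 by -0.61, whereas Klf10 (0.60) and Fosl2 (0.78) rose. Feedback genes of RAS and ERK split evenly, with 5 higher and 5 lower of 26. Dusp6, the cytosolic ERK phosphatase, rose from 146 to 191 CPM, while Spry4 fell from 12.3 to 5.97 CPM and Dusp16 from 18.3 to 8.61 CPM.

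Of 18 tested NF-kB subunits and feedback genes, 10 rose and none fell, with a median of 0.25. Tnfaip3, which encodes the inhibitor A20, had the lowest value of the list and did not pass the test (log2 fold change -0.84 ± 0.42, adjusted p = 0.16), and Nfkbiz was called lower in a fit of the 6 libraries of 3 days alone (-0.25, adjusted p = 0.0353). The inhibitor Nfkbid was at 14.03, 11.8 and 12.7 CPM in controls and 21.6, 20.1 and 21.4 CPM in treated cells (log2 fold change 0.71 ± 0.093, adjusted p = 6.1e-06). Icam1, the ligand of the integrin LFA-1, was at 52.2, 50.6 and 52.7 CPM against 79.4, 73.4 and 74.6 CPM (log2 fold change 0.55 ± 0.052, adjusted p = 6.1e-08). Treated libraries lay above all controls in both. The subunits Nfkb1, Nfkb2 and Rel rose by 0.25, 0.32 and 0.27 on the log2 scale, although Rel lost its call without DMSO replicate 1 (adjusted p = 0.0761). Rela and Relb did not pass the test (adjusted p = 0.23 and 0.077).

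Among interferon-stimulated genes and genes of class I antigen presentation, rises outnumbered falls. Of 39 tested interferon genes and sensors, 19 rose and 1 fell, with a median of 0.22, and 12 rose in the fit without DMSO replicate 2. Gbp3, a guanylate-binding protein, went from 11.6, 9.90 and 11.8 CPM to 17.7, 18.04 and 15.6 CPM (log2 fold change 0.63 ± 0.094, adjusted p = 3.0e-05). Sp100, a nuclear body protein, went from 16.5, 16.8 and 19.4 CPM to 30.8, 31.9 and 27.9 CPM (log2 fold change 0.79 ± 0.086, adjusted p = 4.5e-07). Trim30a went from 27.5, 25.3 and 24.9 CPM to 41.9, 37.2 and 37.8 CPM (log2 fold change 0.58 ± 0.074). Irf1 rose from 47.5 to 57.5 CPM and Irf7 from 0.907 to 1.77 CPM, the latter not called with limma voom (adjusted p = 0.0652) or without WM-1119 replicate 1 or 2 or DMSO replicate 1 or 3 (0.064 to 0.174), while Isg15 and Bst2 did not pass the test (adjusted p = 0.97 and 0.28). Of 24 class I genes, 11 rose and none fell, and 1 fell without WM-1119 replicate 1. Tapbp, the peptide-loading chaperone tapasin, rose from 67.6, 74.4 and 77.6 CPM to 95.9, 102 and 93.8 CPM (log2 fold change 0.41 ± 0.059, adjusted p = 1.9e-05), and Tapbpl from 17.7 to 25.9 CPM. The class Ib genes H2-Q4, H2-Q6 and H2-Q7 rose by 0.40, 0.32 and 0.48 on the log2 scale, but near-identical copies make the split of their reads uncertain; H2-K1, H2-D1 and B2m did not pass the test. Of 14 class II genes 2 rose and 1 fell, the largest being the thiol reductase Ifi30, from 5.53, 6.95 and 6.58 CPM to 13.9, 15.3 and 15.6 CPM (adjusted p = 2.1e-08).

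The Gbp3 promoter is printed for its letters GAAA followed 2 bases later by GAAA (TTTC and TTTC on the other strand), the core of the interferon-stimulated response element, in capitals. The window is chr3:142559794-142560043, on the plus strand, and its 2 matches overlap. A second RefSeq window of Gbp3, further along the gene, held none.
Gbp3: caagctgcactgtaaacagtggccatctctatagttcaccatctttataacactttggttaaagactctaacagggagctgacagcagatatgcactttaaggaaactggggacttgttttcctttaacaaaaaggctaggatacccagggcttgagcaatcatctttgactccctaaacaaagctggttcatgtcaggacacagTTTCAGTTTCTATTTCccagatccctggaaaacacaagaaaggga
The element was in 12 of 30 genes of the interferon list with a window and in 295 of 9235 tested genes (3.19%). Not all of these 12 rose. They included Isg15 and Bst2, which did not pass the test, and the 1 gene of the list that fell. Letters of the kappaB site, GGGANTTCC, were in 5 of 15 NF-kB genes (33.3%) and in 2.33% of all.

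B cell identity genes moved in both directions. Of 39 tested B cell transcription factors, 14 fell (35.9%) and 6 rose (15.4%). Bach2, which holds back plasma cell differentiation, fell from 266, 276 and 279 CPM to 159, 166 and 171 CPM (log2 fold change -0.73 ± 0.046, adjusted p = 9.6e-11). Lef1, a factor of early B cells, fell from 134, 139 and 142 CPM to 76.2, 75.5 and 77.2 CPM (log2 fold change -0.86 ± 0.043, adjusted p = 3.6e-12). Pax5, the B-lineage commitment factor, fell from 115, 127 and 121 CPM to 83.9, 87.1 and 90.1 CPM (log2 fold change -0.47 ± 0.049, adjusted p = 2.4e-07). No treated library of these 3 reached the controls. Ebf1 changed by -0.37, Irf4 by -0.47, Ets1 by -0.54 and Myb by -0.29. Rises were seen in Bcl11a (16.7 to 26.5 CPM), Pou2f2 (36.2 to 50.3 CPM), Spib (125 to 158 CPM) and Spi1 (88.1 to 109 CPM), and the count of rises was 10 without DMSO replicate 3. Among early blood factors, 5 of 14 rose and 1 fell, with Gfi1b (10.8 to 16.6 CPM) and Notch1 (47.8 to 64.6 CPM) rising beside Tal1.

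Signalling from the B cell receptor held 12 rises and 4 falls among 34 genes. Cd79b, a signalling chain of the receptor, rose from 268, 283 and 309 CPM to 434, 381 and 406 CPM (log2 fold change 0.51 ± 0.053, adjusted p = 2.4e-07). The inhibitory phosphatase SHIP, Inpp5d, rose from 464, 477 and 527 CPM to 625, 639 and 650.03 CPM (log2 fold change 0.38 ± 0.047, adjusted p = 2.0e-06). Plcg2 rose by 0.26 and Pik3cd by 0.27, while the log2 fold change was -0.77 for the kinase Fyn and -0.31 for the inhibitory receptor Cd22. Pro-B and pre-B genes had 5 rises and 4 falls among 17. Rag1, a recombinase subunit, rose from 331 to 431 CPM and Il7r, the receptor of the pre-B growth factor, from 92.3 to 114 CPM, while the surrogate light chain Igll1 fell from 196 to 165 CPM and Flt3 from 5.07 to 2.46 CPM. On the mature B cell surface 6 of 22 rose and 6 fell, including Cd86, a costimulator of T cells (3.90, 3.91 and 4.54 CPM to 9.30, 10.2 and 11.2 CPM, adjusted p = 2.6e-08), and Slamf7, lower at 129, 126 and 119 CPM against 71.1, 70.1 and 73.7 CPM (adjusted p = 8.2e-11).

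Migration receptors and integrins held 9 rises and 5 falls among 26. Itgal, the alpha chain of LFA-1, rose from 159, 162 and 159.97 CPM to 245, 277 and 267 CPM (log2 fold change 0.71 ± 0.048, adjusted p = 2.8e-10). Itga4, the alpha chain of VLA-4, rose from 386, 345 and 399 CPM to 501, 532 and 509 CPM (log2 fold change 0.45 ± 0.081, adjusted p = 0.0012). One of its partners, Itgb7, was at 0.975, 0.773 and 1.02 CPM against 1.46, 2.65 and 1.99 CPM (log2 fold change 1.18 ± 0.27). Groups were apart in all 3. Cxcr4, the receptor for bone marrow retention, rose from 123 to 151 CPM, whereas Ccr7 fell from 46.8 to 39.3 CPM (not called without WM-1119 replicate 2, adjusted p = 0.0708) and P2ry10 from 3.64 to 1.73 CPM.

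Among genes of protein synthesis the changes were small. Of 40 translation factors, 16 fell, none rose and 24 did not pass the test, with a median of -0.11. Eef2, which moves the ribosome along, went from 5538, 5886 and 5951 CPM to 5041, 4944 and 5014 CPM (log2 fold change -0.21 ± 0.039, adjusted p = 0.00031). Eef1g had the largest change of the list, from 516, 548 and 529 CPM to 427, 405 and 406 CPM (log2 fold change -0.36 ± 0.044). Of 56 ribosome biogenesis genes, 11 fell and none rose, and the falls numbered 4 without WM-1119 replicate 2, 5 without WM-1119 replicate 3 or DMSO replicate 3, and 7, beside 2 rises, with upper-quartile scaling. Nucleophosmin, Npm1, led by level (1224 to 1054 CPM). The polyamine enzyme ornithine decarboxylase, Odc1, a known MYC target, fell from 683, 707 and 682 CPM to 552, 513 and 537 CPM (log2 fold change -0.37 ± 0.043, adjusted p = 9.4e-07). In the ATF4 and amino acid response 9 of 28 fell and 5 rose. Trib2, a pseudokinase, fell from 76.8, 72.6 and 74.5 CPM to 27.7, 27.8 and 24.9 CPM (log2 fold change -1.47 ± 0.074, adjusted p = 3.8e-12) and Atf4 by -0.28, while Cebpb (7.51 to 12.98 CPM) and Atf5 (12.5 to 18.4 CPM) rose. Heat shock and chaperone genes had 7 falls and 1 rise among 24, the rise not called with DESeq2, and genes of the unfolded protein response 5 falls and 3 rises among 26.

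Among lysosome genes, rises outnumbered falls. Of 60 tested, 23 rose, 5 fell and 32 did not pass the test, with a median of 0.12. Their summed level was 4871, 4980 and 5014 CPM in the controls and 5639, 5438 and 5558 CPM with WM-1119, without overlap. Grn, progranulin, rose from 139, 162 and 158 CPM to 240.3, 231 and 245 CPM (log2 fold change 0.65 ± 0.053, adjusted p = 6.4e-09). Psap, the precursor of the saposins, rose from 653, 677 and 633 CPM to 904, 879 and 911 CPM (log2 fold change 0.46 ± 0.04, adjusted p = 1.7e-08). Tfeb, the factor that controls lysosome genes, rose from 61.9 to 76.9 CPM. Among the falls were Atp6v0a1, a proton pump subunit (14.6 to 8.28 CPM), and cathepsin L, Ctsl (11.3 to 6.70 CPM). Of 34 autophagy genes, 1 rose and 2 fell, and with DESeq2 1 fell.

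Chromatin regulators changed in both directions, as did all genes tested (11.8% higher and 12.6% lower). Of 18 deacetylases and sirtuins 2 rose (11.1%) and 3 fell (16.7%), with 4 rises under upper-quartile scaling. Hdac11 fell from 3.97 to 2.15 CPM. Among 13 other histone acetyltransferases none rose and 1 fell (7.69%), the fall not called without WM-1119 replicate 1. Of 42 polycomb and trithorax genes, 4 rose (9.52%) and 8 fell (19.0%). The falls numbered 3 without WM-1119 replicate 2, WM-1119 replicate 3 or DMSO replicate 3. Bmi1, a polycomb subunit that represses Cdkn2a, rose from 226, 202 and 224 CPM to 303, 259 and 266 CPM (log2 fold change 0.34 ± 0.076, adjusted p = 0.004). Readers of acetyl-lysine had 5 falls among 26 (19.2%) and no rise, the deepest in Brwd1 (6.16 to 4.15 CPM). In the BCL-2 family the counts were 4 rises and 1 fall among 14, and the rises came down to 1 without WM-1119 replicate 2 or DMSO replicate 3. The pro-death gene Bcl2l11 (BIM) rose from 39.9 to 45.8 CPM, and Bcl2, Mcl1 and Bcl2l1 did not pass the test.

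**Figure D4:**
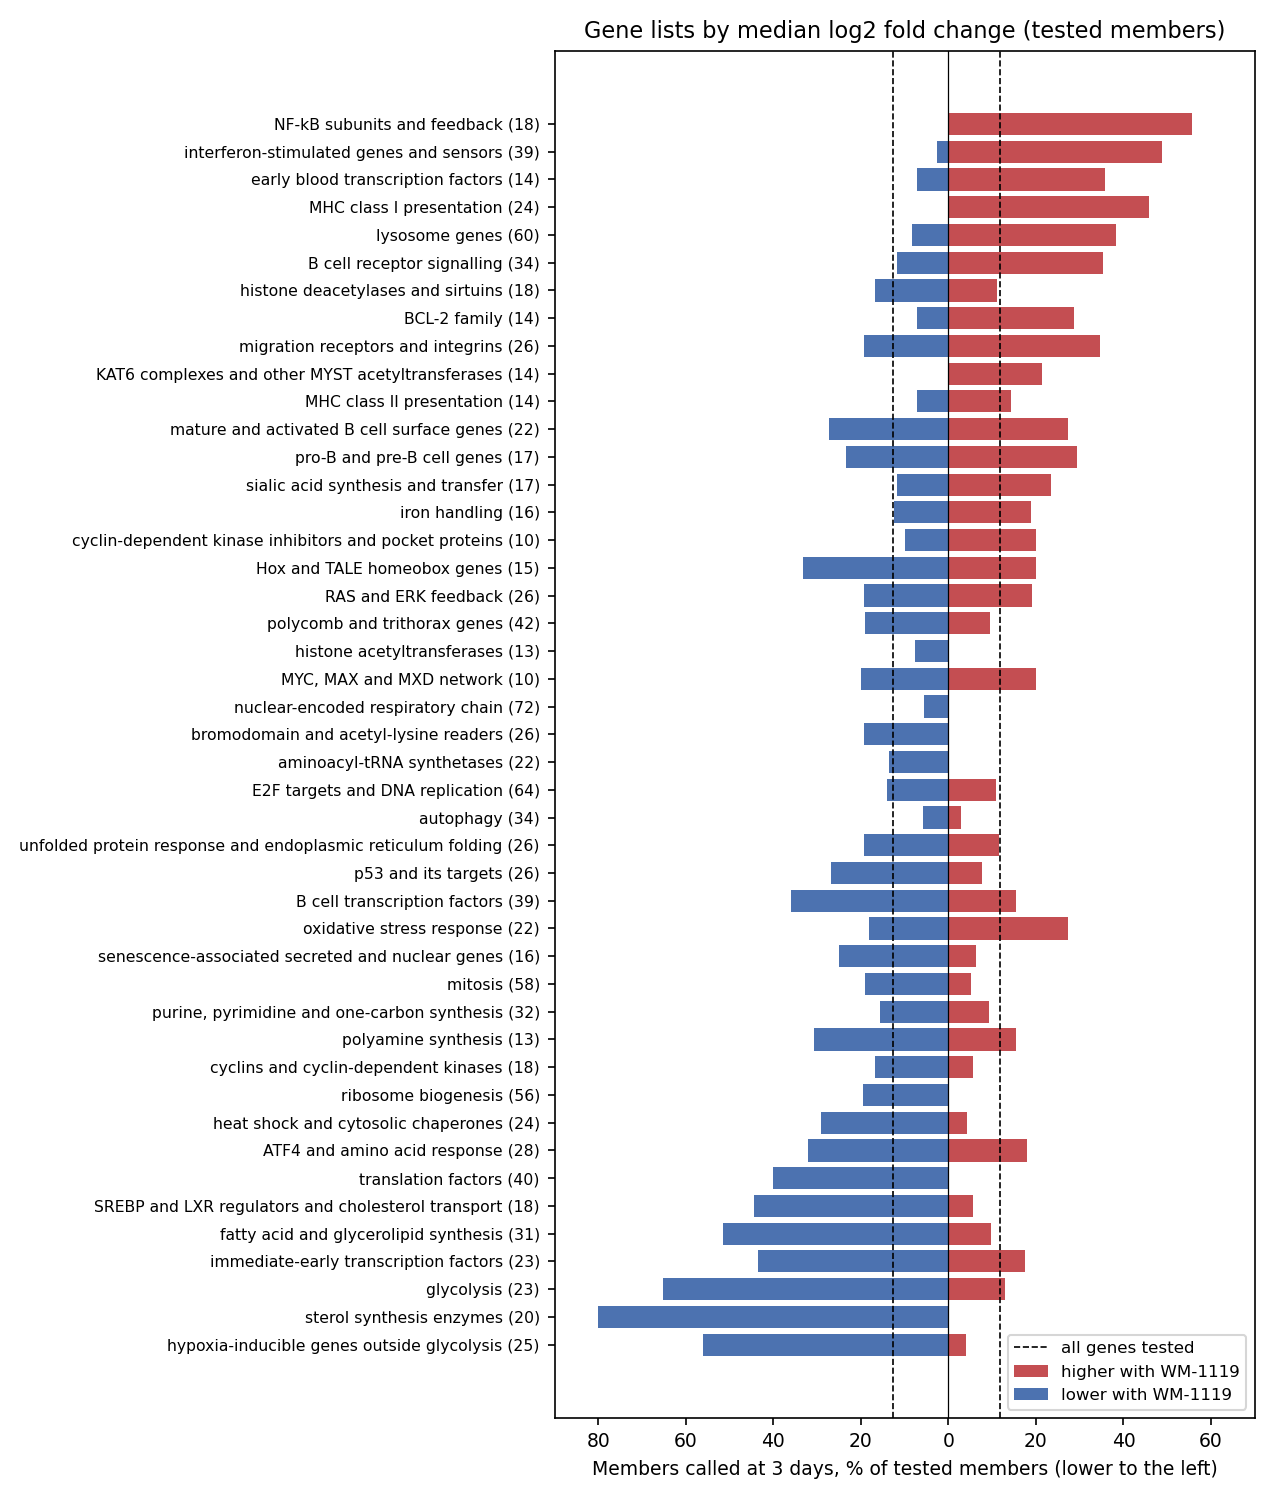
Share of the tested members of each of 45 gene lists that were higher (red, to the right) or lower (blue, to the left) with WM-1119 at 3 days, in percent, ordered by the median log2 fold change of the members; the number tested is in brackets. Dashed lines mark the shares over all genes tested, 11.8% higher and 12.6% lower. Sterol synthesis (80.0% lower) and glycolysis (65.2% lower) reach furthest to the left and NF-kB genes (55.6% higher) furthest to the right.

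Most early changes were also present at 6 days, in other libraries with their own controls. At 6 days 3693 genes (30.8%) were called. Of the 2930 genes called at 3 days, 2235 were called in the same direction at 6 days, which is 76.3% of the 3-day calls and 60.5% of the 6-day calls. A further 2 were called in the opposite direction, and 2868 had the same sign. The difference between the effects at 6 and 3 days passed the test for 87 genes (0.725% of those tested). Among the genes called at 3 days, 75 differed. In 55 the effect was larger at 6 days, 23 rises and 32 falls. In the other 20 it was smaller or reversed, 19 of them falls at 3 days. The count of 87 ranged from 46 (without WM-1119 3-day replicate 3) to 217 (without DMSO 6-day replicate 3) when single libraries of either time were left out, and was 5 without the 5 libraries that held over 1 CPM of Col1a1.

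**Figure D5:**
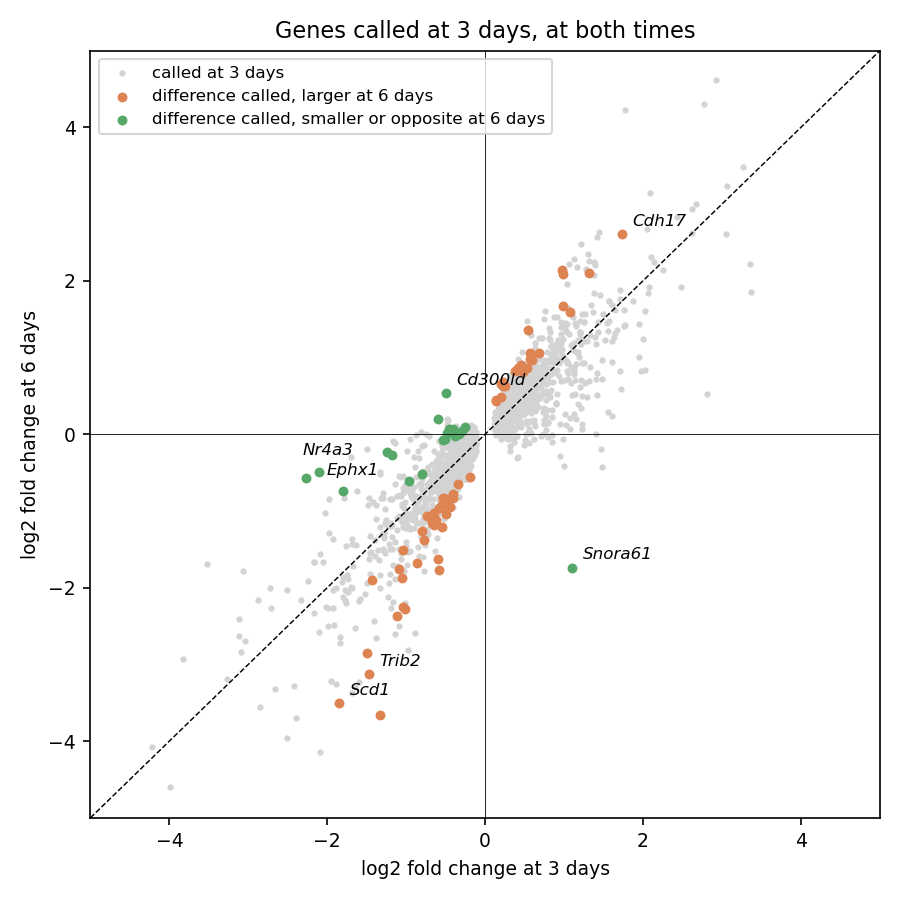
Log2 fold change with WM-1119 at 3 days (horizontal) and at 6 days (vertical) of the genes called at 3 days; the dashed line marks equal effects. Orange points are the 55 genes whose difference between times was called and is larger at 6 days, green points the 20 whose 6-day effect is smaller or opposite; 1 gene, Hoxc4, lies outside the axes. All green points but Snora61 lie to the left of 0, between the dashed line and the horizontal axis or above it.

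The 19 falls that were smaller or reversed at 6 days included the following. Nr4a3 had log2 fold changes of -2.10 at 3 days and -0.49 at 6 days, where it was at 7.08, 5.81 and 7.23 CPM in controls and 4.73, 4.30 and 5.44 CPM with WM-1119 (difference 1.62 ± 0.23, adjusted p = 0.00067). H19, an imprinted noncoding RNA, went from 34.05, 34.1 and 28.7 CPM to 12.7, 15.7 and 14.1 CPM at 3 days and from 24.7, 23.1 and 24.4 CPM to 19.7, 21.9 and 18.5 CPM at 6 days (difference 0.92 ± 0.13, adjusted p = 0.00053). Plce1, a phospholipase C that RAS activates, went from 16.9, 16.2 and 16.5 CPM to 7.41, 7.47 and 5.98 CPM and, at 6 days, from 13.8, 13.1 and 13.7 CPM to 11.4, 10.6 and 12.5 CPM (difference 1.00 ± 0.14, adjusted p = 0.00053). The groups were apart at 3 days in all 3 genes. Actn1, the non-muscle alpha-actinin, fell from 252, 262 and 246 CPM to 176, 179.9 and 188 CPM at 3 days and was at 246, 256 and 246 CPM against 259, 249.5 and 245 CPM at 6 days, where it did not pass the test (adjusted p = 0.87; difference 0.49 ± 0.062). Gimap3, a GTPase of lymphocytes, gave -0.60 at 3 days and 0.20 at 6 days. Cd300ld, an immunoglobulin-like receptor, reversed, with -0.50 at 3 days (adjusted p = 0.00031) and 0.54 at 6 days (adjusted p = 2.9e-05).

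Changes that were present at 3 days and larger at 6 days included many lipid genes. Scd1 was at 186, 187 and 181 CPM in the 6-day controls and 15.8, 14.9 and 18.2 CPM in the 6-day treated libraries, a log2 fold change of -3.51 against -1.85 at 3 days (difference -1.66 ± 0.093, adjusted p = 3.6e-10). Scd2 went from -1.05 to -1.88 (adjusted p of the difference = 2.4e-07) and Trib2 from -1.47 to -3.12 (adjusted p = 2.0e-08). The differences of Scd1, Scd2, Trib2 and Plce1 passed the test in every alternative fit. Of the 20 sterol enzymes, 8 were among the 55 genes with a larger effect at 6 days, among them Hmgcs1, Lss, Cyp51 and Msmo1. The list's median went from -0.48 to -0.78. In controls the list summed to 1463, 1499 and 1313 CPM at 3 days and 1728, 1728 and 1716 CPM at 6 days. With WM-1119 it summed to 1012, 1068 and 1031 CPM at 3 days and 1001, 1004 and 993 CPM at 6 days. The glycolysis list and the list of hypoxia-inducible genes outside glycolysis had no member whose difference between times was called. Cdkn2a was also among the 55. Its levels at 6 days were 10.98, 11.7 and 10.2 CPM in controls and 31.1, 37.7 and 36.2 CPM with WM-1119, a log2 fold change of 1.67 (difference 0.69 ± 0.13, adjusted p = 0.0064). Cdkn1a, not called at 3 days, was called at 6 days (log2 fold change 1.25, adjusted p = 1.5e-06), and the difference passed the test (1.37 ± 0.22, adjusted p = 0.003). Hoxb8 did not differ detectably between times (difference -0.087 ± 0.066, adjusted p = 0.81).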

How the data were processed

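RNA sequencing was measured in 12 libraries of 1 mouse lymphoma line, 3 per compound and time. The deposited table holds raw read counts per gene, made by the authors with featureCounts against mm10, per the submitters' processing notes; the sources used here name neither the aligner nor the strand setting. Of 27179 rows, 874 had no gene identifier (0.305 to 0.362% of counts) and were left out; 25275 identifiers matched RefSeq (GRCm38.p6), which gave names, positions and promoter windows, and 1030 did not. Reads of overlapping or antisense genes may not be separable.

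From the deposited counts, edgeR 4.0.16 in R 4.3.3 fitted 4 group means over all 12 libraries (filterByExpr, TMM scaling, robust quasi-likelihood), with a contrast of compound against solvent at each time and the difference of both (6 minus 3 days). Fold changes are log2 with their standard error (SE), adjusted p-values are Benjamini-Hochberg over all 11997 genes tested, and the threshold is 0.05. CPM values (counts per 1000000) were computed here from TMM-scaled library sizes. The biological coefficient of variation was 5.69%. On simulated counts for this comparison (11886 genes), the procedure recovered 60% of 50 genes changed 1.25-fold, 92% at 1.5-fold, 90% at 2-fold and 100% at 4-fold. Of its 185 calls, 14 (7.57%) were of unchanged genes. The simulation changed only 50 genes at each of these folds, far fewer than the 2930 called in the data. Its shares need not hold for the real comparison. The number of libraries limits the precision: an exact permutation test of 3 against 3 cannot go below p = 0.1, so single genes were tested only in the model.

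The comparison and the 45 gene lists were chosen with earlier results of these data known. The rule named, for 3 days, the 10 largest rises and falls among called genes of at least 5 CPM whose groups did not overlap, the 6 of each with the smallest p, the 6 of each with the highest level at 1.5-fold or more, genes that crossed from under 0.5 to at least 2 CPM, the 6 of each kind with the strongest difference between times, up to 5 members of each list (all members of lists with at most 15 tested), and 12 fixed genes. It gave 322 genes; 56 more were named as examples after their values were seen. Same-numbered treated and control libraries of 6 days deviated together (correlations 0.193, 0.144 and 0.243), those of 3 days did not. Some genes are not reported here, although counts over lists include them. The fits were repeated with RLE or upper-quartile scaling, without a filter or with one of 1 CPM, with DESeq2 1.42.0, limma 3.58.1 (voom), the 6 libraries of 3 days alone, a replicate block, each replicate left out, and, chosen after seeing the data, without the 5 libraries in which Col1a1 exceeded 1 CPM.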

Additional observations from a re-analysis of the deposited data

Results flagged for a closer look

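In 42 of the 378 named genes the effect of WM-1119 differed between 6 and 3 days by the interaction test in edgeR (adjusted p under the threshold). Each value below is that difference, the log2 fold change at 6 days minus that at 3 days. Groups of 3 libraries are too small for a test of single outlying libraries, and none was made.

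In lipid genes the effect, as a log2 fold change against DMSO, was larger at 6 days. The sterol list with WM-1119 summed to 1012, 1068 and 1031 CPM at 3 days and 1001, 1004 and 993 CPM at 6 days. Its controls summed to 1463, 1499 and 1313 CPM at 3 days and 1728, 1728 and 1716 CPM at 6 days. The desaturases differed by -1.66 ± 0.093 (Scd1) and -0.83 ± 0.069 (Scd2). Among sterol enzymes the difference was -0.54 for Mvd, -0.53 for Lss, -0.50 for Fdps, -0.48 for Msmo1, -0.44 for Acat2, -0.41 for Sc5d, -0.38 for Cyp51 and -0.38 for Hmgcs1. Insig1 differed by -0.50, Srebf1 by -0.31, the acyl-CoA synthetase Acsl3 by -0.38 and the oxysterol-binding protein Osbp2 by -1.36.

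Other falls were larger at 6 days as well. The difference was -1.65 for Trib2, -1.26 for the kappa light chain Igkc, -1.19 for Brwd1, -0.82 for the amino acid carrier Slc1a4 and -0.67 for the repressor Gfi1. It was -0.60 for Cmah, which hydroxylates sialic acid, -0.46 for Slamf7, -0.34 for Bach2 and -0.29 for Ets1.

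Rises that were larger at 6 days were found in Adgrg1 (difference 1.18), Cdh17 (0.88), Cd86 (0.79), Cdkn2a (0.69), St3gal1 (0.37), catalase, Cat (0.37), and Jade2 (0.33). Cdkn1a, not called at 3 days, differed by 1.37 ± 0.22.

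Falls at 3 days that were smaller, absent or reversed at 6 days were found in Nr4a3 (difference 1.62), Ephx1 (1.06), Cd300ld (1.04), Plce1 (1.00), H19 (0.92), Gimap3 (0.80), Actn1 (0.49), the B cell kinase Blk (0.36), Enpp3 (0.35), Igll1 (0.34) and Tgfbrap1 (0.28).

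Of the 42 differences, 4 (Scd1, Scd2, Trib2 and Plce1) passed the test in every alternative, 20 lost the call only without the 5 libraries in which Col1a1 exceeded 1 CPM, and 18 lost it in further alternatives. Of those 5 libraries 4 are of 6 days, so the fit without them has 1 library in each 6-day group, which is assumed to vary like the other groups. The part of Col1a1 in these differences was not tested.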

How the results depend on the processing

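At 3 days the main counts were 1414 higher and 1516 lower. They were 1457 and 1488 with RLE scaling, 1640 and 1299 with upper-quartile scaling, 1300 and 1390 with DESeq2, 1378 and 1496 with limma voom, 1489 and 1414 with no filter, and 1550 and 1511 with the 6 libraries of 3 days alone. Upper-quartile scaling moved the median of all genes from 0.0016 to 0.0236 on the log2 scale and the share of calls that were higher from 48.3% to 55.8%. Leaving out single 3-day libraries gave 1036 to 1272 higher and 1131 to 1361 lower, and dropping the 5 libraries in which Col1a1 exceeded 1 CPM gave 1097 and 1199. Of 277 named genes called at 3 days, 228 kept their call in every alternative that tested them, and none of the named genes reversed a called direction. Hoxc4 was tested in 14 of the 16 alternatives and Cdkn2b in 15. Of 90 counts of list members, 44 moved by more than 1.5-fold in at least 1 alternative. The count of 87 genes whose effect differed between times was 58 with limma voom, 46 to 217 with single libraries left out, and 5 without those 5 libraries.

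Same-numbered treated and control libraries of 3 days were not paired by their numbers and correlated at -0.023, 0.039 and 0.006 in their deviations from the group means. With the replicate number as a block the counts were 1522 higher and 1635 lower at 3 days, 3904 called at 6 days against 3693 (4352 within the 6 libraries of 6 days, both added after seeing the data), and 100 for the difference between times. Of the named differences, Jade2 lost its call under the block (adjusted p = 0.0505). Changes under 1.25-fold are the ones this depth and number of libraries limit most.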

Other observations

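Over all genes tested 11.8% were higher and 12.6% lower at 3 days. Of 17 tested sialic acid genes, 4 rose (23.5%) and 2 fell (11.8%). The rises numbered 1 without WM-1119 replicate 1 or 2 and 2 without any single control. St3gal6, a sialyltransferase, had a log2 fold change of -1.35 ± 0.08 (adjusted p = 4.3e-11), St3gal1 one of 0.69 ± 0.056 (adjusted p = 6.9e-09) and St6gal1 one of -0.30 ± 0.04 (adjusted p = 7.8e-06). Of 22 oxidative stress genes, 6 rose (27.3%) and 4 fell (18.2%). The rises numbered 3 without WM-1119 replicate 1, DMSO replicate 1 or DMSO replicate 3, and no fall was called without WM-1119 replicate 2. Thioredoxin reductase, Txnrd1, was at 186, 194 and 222 CPM in controls and 302, 298 and 304 CPM with WM-1119 (log2 fold change 0.59 ± 0.054, adjusted p = 4.0e-08). Of 16 iron genes, 3 rose (18.8%) and 2 fell (12.5%), the falls numbering 0 or 1 with any 3-day library left out. Transferrin, Trf, was at 0.929, 0.966 and 1.53 CPM against 1.84, 2.20 and 2.68 CPM (log2 fold change 0.99 ± 0.26, adjusted p = 0.0067).

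Of 32 nucleotide synthesis genes, 3 rose (9.38%) and 5 fell (15.6%), the falls numbering 2 without WM-1119 replicate 2 and 3 without DMSO replicate 3. Of 22 aminoacyl-tRNA synthetases none rose and 3 fell (13.6%), with Gars at -0.30 on the log2 scale. Of 13 polyamine genes, 2 rose (15.4%) and 4 fell (30.8%), and no rise was called without DMSO replicate 1. Of 10 inhibitors of cyclin-dependent kinases and pocket proteins, 2 rose and 1 fell. Of 16 senescence-associated secreted and related genes, 1 rose (6.25%) and 4 fell (25.0%). The rises numbered 0 without WM-1119 replicate 1 or DMSO replicate 1 and 3 in a fit of the 6 libraries of 3 days alone. The falls included the metalloprotease Mmp14 (-1.04) and Tgfb2 (-1.03). Of 10 genes of the MYC network, 2 rose and 2 fell, and 1 fell with DESeq2. Mxd3, a partner of MAX, rose from 11.6 to 16.9 CPM (log2 fold change 0.55).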
